A study of Mus musculus with 9 samples.

Results

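The transcriptome of mouse embryonic stem (ES) cells labelled as deleted for Zbtb11 was set against that of an unmodified line given the same drug. The comparison held 3 libraries labelled Zbtb11 KO and 3 libraries of the 4OHT control, selected by their titles, 6 of the 9 libraries of the series. All cells derived from the E14 ES line, were grown without feeder cells in serum and LIF, and were collected after 72 h of treatment. The labelled KO cells carried loxP-flanked alleles (Zbtb11lox/lox) and the ERt2-Cre recombinase at Rosa26, and received 250 nM 4-hydroxytamoxifen (4OHT), which switches on the Cre fusion. The 4OHT control cells had both loci unmodified (Zbtb11WT/WT, Rosa26WT) and received the same dose. The remaining 3 libraries, the ethanol control, came from the floxed ERt2-Cre line without 4OHT and are used here only to locate differences between the lines. Drug and time were therefore shared by both groups compared, whereas the cell line, the presence of Cre and the deletion all differed and cannot be told apart in this contrast alone. Whether the 3 replicates of a group were grown apart is not in the labels, and the p-values therefore speak only for the variation among these libraries, possibly technical.

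Zbtb11 encodes a nuclear protein with a BTB domain, through which such proteins pair, and zinc fingers, which bind DNA. Mitochondria of ES cells rely on many nuclear genes: subunits and assembly factors of complex I, which passes electrons from NADH into the respiratory chain, and the proteins of the mitochondrial ribosome, which translates the few messages of the mitochondrial genome. p53, a transcription factor activated by several kinds of stress, raises genes that slow the cell cycle or promote cell death.

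Gene counts per library ranged from 18856863 to 22325943 in the labelled KO group and from 17457038 to 21441306 in the 4OHT control. Reads assigned to no gene made up 32.7% to 33.8% of each labelled KO library, 26.7% to 27.5% of each 4OHT control library and 26.4% to 28.7% of each ethanol control library. The groups compared did not overlap in this share, and its part in the results below was not tested. The first principal component of the 6 libraries held 68.7% of the variance and separated the groups, and the second, with 10.5%, set replicate 3 of both groups apart from replicates 1 and 2.

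The targeted gene was examined first. The level is given in CPM, the read count relative to the TMM-scaled library size. Zbtb11 stood at 369, 386 and 376 CPM in the 3 libraries labelled KO, and at 364, 378 and 361 CPM in the 4OHT control. The groups overlapped, with a log2 fold change of 0.04 (SE 0.05, adjusted p = 0.547 by edgeR's quasi-likelihood test, as throughout). With library totals in place of TMM scaling it was called, at 0.12 (adjusted p = 0.0365). A count over the whole gene does not show whether a part of it was removed, so the deletion was not checked by these values and the group is called by its label. At the other edited locus, the noncoding transcript Gt(ROSA)26Sor was at 5.39, 5.40 and 4.78 CPM against 3.18, 2.11 and 2.59 CPM, a rise of 0.97 (SE 0.18, adjusted p = 5.11e-04). The ethanol control averaged 2.80 ± 0.526 CPM (SD, n = 3), near the 4OHT control. The neighbours Thumpd3 and Setd5 rose by 0.71 and 0.37, and both were as high in the ethanol control. Of the genes around Zbtb11, Cep97, Nxpe3 and Senp7 were not called, Trmt10c, a subunit of mitochondrial RNase P, rose by 0.22 (adjusted p = 0.0303), and Pcnp fell by 0.18 (adjusted p = 0.0499). The calls of Trmt10c and Pcnp were lost in 5 and 12 of the 17 alternative fits.

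The lines differed over whole stretches of chromosome, so these are described before the genes. All 7 Y-linked genes tested had 0 counts in every labelled KO library, whereas Ddx3y was at 96.4, 90.5 and 91.4 CPM, Eif2s3y at 67.5, 63.6 and 59.3 CPM and Uty at 40.5, 43.9 and 42.6 CPM in the 4OHT control. Against a floor of 3 counts per library, Ddx3y was at least 595-fold lower, and the ethanol control held at most 2 counts of any Y-linked gene in a library. On chromosome 6, from Trnt1 to the distal end, 204 of 290 tested genes rose and 9 fell. Over the 203 of these that reached a mean log2 CPM of 2, the median log2 fold change was 0.57, against -0.02 for the genes before Trnt1. The 3 labelled KO libraries had median offsets of 0.57, 0.55 and 0.56 there. This stretch holds the Rosa26 locus and also Nanog, Dppa3, Gdf3 and Gapdh. On chromosome 8, 368 of 816 tested genes fell and 47 rose, with a median of -0.27. Between Elmsan1 and Tmed10 on chromosome 12, 23 of 29 genes rose, with a median of 0.35. For the ethanol control against the 4OHT control the corresponding medians were 0.60, -0.24 and 0.38, and between labelled KO and ethanol control they were -0.06, -0.02 and -0.02. These comparisons share libraries. The values place the same stretches apart in both groups of the floxed line, whatever the drug. DNA was not analysed here. The stretches were picked out after their values were seen, and no test is given for them.

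**Figure D1:**
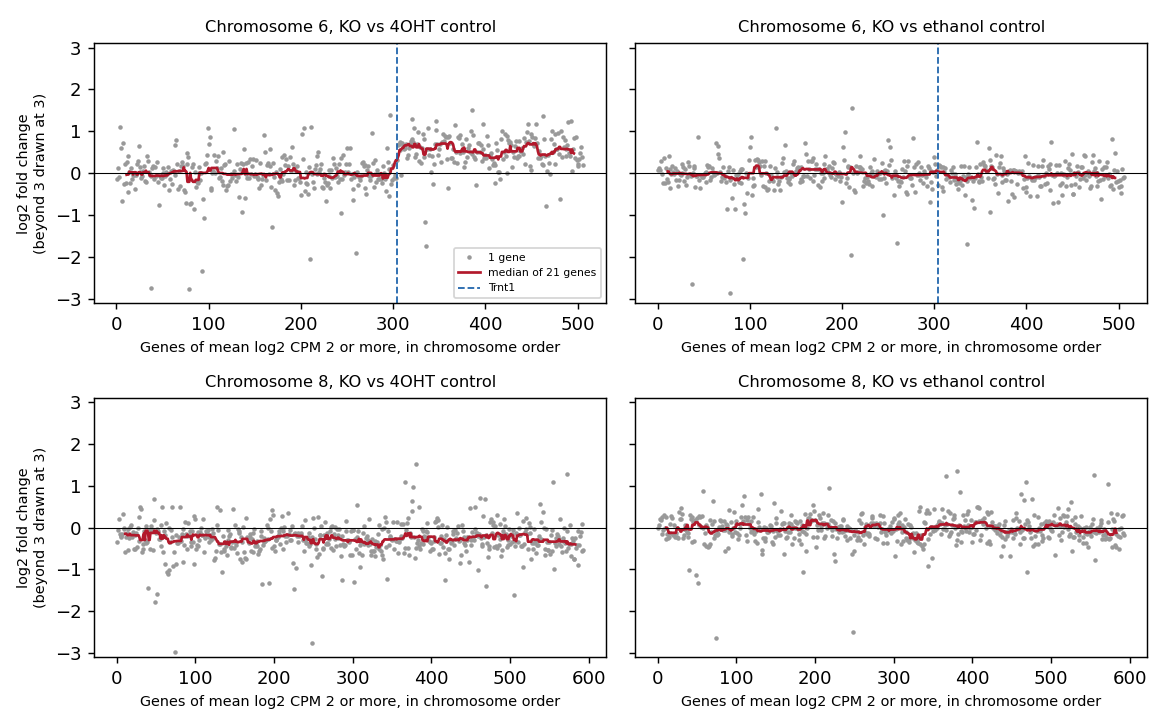
Log2 fold change of genes that reach a mean log2 CPM of 2, in order along chromosomes 6 and 8, comparing labelled KO libraries with the 4OHT control (left) and with the ethanol control (right). Grey points are genes (values beyond 3 are drawn at 3), the red line is the running median of 21 genes, and the dashed line marks Trnt1, after which the median is 0.57 on the left and -0.06 on the right.

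Across all genes, 6319 of 16224 tested (38.9%) were called at an adjusted p under 0.05, of which 3103 rose (19.1% of the tested) and 3216 fell (19.8%). Rises of at least 2-fold were 4.19% of the tested genes, and such falls 2.88%. A replicate block took the calls to 8337 genes (51.4%), 4139 upwards and 4198 downwards. With plain library totals in place of TMM scaling, 4215 rose and 2328 fell, which took the share of rises among the calls from 49.1% to 64.4%. The 4 stretches held 7.04% of the tested genes and 10.4% of the calls; outside them 5660 of 15082 genes (37.5%) were called, 2829 upwards and 2831 downwards. Steep changes were mostly falls among expressed genes: at 4-fold or more, 114 genes fell (0.703% of the tested) and 84 rose (0.518%), but 73 of those 84 rises had a mean log2 CPM under 2. Between 2 and 4 log2 CPM, 43 genes fell at least 4-fold and 6 rose. The ethanol control differed from the 4OHT control in 2987 genes (18.4%), 8.75% of the tested upwards and 9.66% downwards. A replicate block took this count to 5323, and leaving out replicate 2 of the ethanol control took it to 1974. The labelled KO libraries differed from the ethanol control in 4417 genes (27.2%), 13% upwards and 14.2% downwards, or 6936 with a replicate block. At 4-fold or more, 28 genes fell (0.173%) and 15 rose (0.0925%) in the first of these, and 73 fell (0.45%) and 40 rose (0.247%) in the second.

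The 12 steepest falls among genes of at least 2 log2 CPM lay between -4.69 and -3.69. The ranking took only called genes in which no library of one group reached the other group's range. Their separation from the 4OHT control was therefore set by the rule. Falls without such overlap made up 19% of all tested genes, and such rises 18.3%. Ndufc2, a subunit of complex I, was at 1.40, 1.31 and 1.40 CPM where Zbtb11 was labelled KO, and at 34.2, 35.4 and 37.1 CPM in the 4OHT control. Its log2 fold change was -4.69 (SE 0.10, adjusted p = 1.01e-14). Every labelled KO library was low, and the ethanol control stood at 28.2 ± 0.519 CPM (SD, n = 3).

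Aar2, which takes part in the assembly of the U5 particle of the spliceosome, was at 1.91, 3.06 and 1.14 CPM against 44.2, 43.5 and 42.5 CPM (log2 fold change -4.40, SE 0.17). Slc35a3, which carries UDP-N-acetylglucosamine into the Golgi, was at 2.04, 1.41 and 0.936 CPM against 30.4, 26.4 and 31.7 CPM (log2 fold change -4.30, SE 0.16). Hus1, part of the 9-1-1 clamp that signals DNA damage, was at 5.90, 6.96 and 6.86 CPM against 115, 121 and 119 CPM. Their roles differ, and each was reduced to a small remainder. Zmpste24, the protease that matures lamin A, averaged 3.62 ± 0.862 CPM against 65.7 ± 1.46 CPM (SD, n = 3 each). Alg3, a mannosyltransferase of N-glycan assembly, averaged 1.72 ± 0.221 CPM against 28.6 ± 2.65 CPM, and Pigq, which acts in the first step of GPI anchor synthesis, 4.43 ± 0.301 CPM against 64.6 ± 1.12 CPM. Nkap, a nuclear regulator of transcription and splicing, and Ndufaf1, an assembly factor of complex I, had log2 fold changes of -3.85 and -3.81. Wdr36, a factor of small-subunit ribosome biogenesis, was the most abundant of the 12 in the 4OHT control, at 176, 183 and 184 CPM, and stood at 14.9, 15.3 and 11.5 CPM in the labelled KO libraries. Ankrd40 had -4.41 and Acbd6, an acyl-CoA binding protein, -3.69. Against the ethanol control the same 12 genes had log2 fold changes between -4.36 and -3.40.

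**Figure D2:**
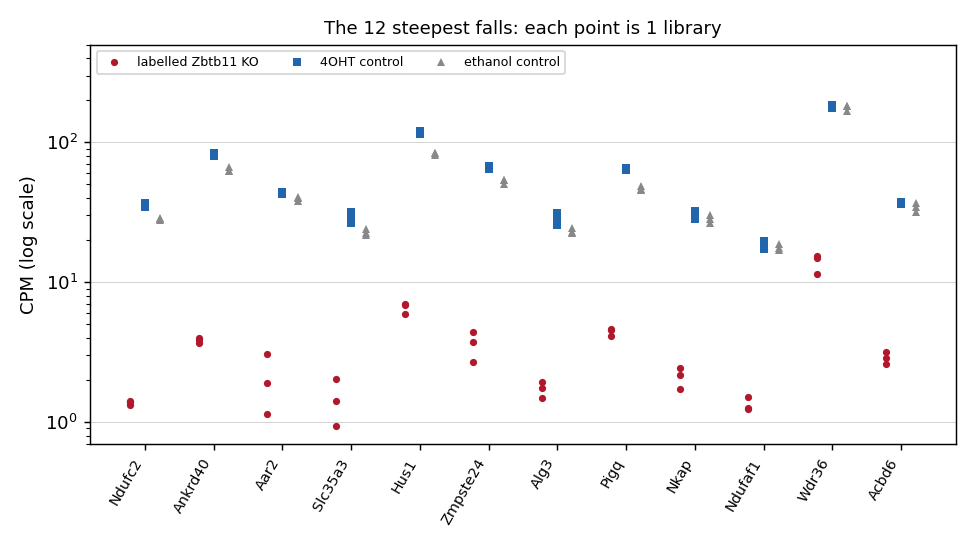
CPM (log scale) of the 12 steepest falls in every library, as 1 point per library and 3 per group (red circles, labelled Zbtb11 KO; blue squares, 4OHT control; grey triangles, ethanol control). All labelled KO points lie below all control points of the same gene, which the rule that chose the genes required for the 4OHT control. Ndufc2 is at 1.31 to 1.40 against 34.2 to 37.1 CPM in the 4OHT control.

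The promoters of these genes were read for shared letters. RefSeq windows on GRCm38.p6, from 250 bases before to 50 after the gene start, were on hand for 11 of the 12, and 6 of them hold the word CGGAACC. Those 6 are printed 5′ to 3′ on the gene's strand, with the word in capitals. They lie at chr7:97399753-97400052 (plus strand) for Ndufc2, chr2:156547326-156547625 (plus strand) for Aar2, chr11:9011142-9011441 (minus strand) for Hus1, chr4:121098161-121098460 (minus strand) for Zmpste24, chr16:20610712-20611011 (minus strand) for Alg3 and chr1:155557870-155558169 (plus strand) for Acbd6.
Ndufc2: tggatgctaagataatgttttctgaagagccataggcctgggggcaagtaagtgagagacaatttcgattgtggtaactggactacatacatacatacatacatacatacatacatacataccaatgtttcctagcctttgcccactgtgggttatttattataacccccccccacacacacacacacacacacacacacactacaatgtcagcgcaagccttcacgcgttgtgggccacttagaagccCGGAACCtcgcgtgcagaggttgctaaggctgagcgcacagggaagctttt
Aar2: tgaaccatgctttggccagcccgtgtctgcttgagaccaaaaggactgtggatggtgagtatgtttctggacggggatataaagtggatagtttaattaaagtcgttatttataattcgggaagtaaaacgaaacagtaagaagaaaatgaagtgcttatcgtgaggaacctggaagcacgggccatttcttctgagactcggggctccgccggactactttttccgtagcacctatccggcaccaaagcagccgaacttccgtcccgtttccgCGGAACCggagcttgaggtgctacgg
Hus1: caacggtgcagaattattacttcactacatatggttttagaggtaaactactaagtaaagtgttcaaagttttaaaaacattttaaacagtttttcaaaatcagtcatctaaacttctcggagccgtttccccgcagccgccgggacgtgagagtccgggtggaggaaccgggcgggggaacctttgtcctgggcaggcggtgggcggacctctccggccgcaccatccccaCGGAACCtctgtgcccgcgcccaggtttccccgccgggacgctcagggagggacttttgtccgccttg
Zmpste24: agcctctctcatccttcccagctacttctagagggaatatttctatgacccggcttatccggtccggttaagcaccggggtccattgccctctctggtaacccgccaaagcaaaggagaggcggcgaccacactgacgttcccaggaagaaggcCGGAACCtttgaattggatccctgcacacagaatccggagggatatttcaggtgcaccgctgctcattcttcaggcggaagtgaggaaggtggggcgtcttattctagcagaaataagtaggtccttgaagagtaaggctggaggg
Alg3: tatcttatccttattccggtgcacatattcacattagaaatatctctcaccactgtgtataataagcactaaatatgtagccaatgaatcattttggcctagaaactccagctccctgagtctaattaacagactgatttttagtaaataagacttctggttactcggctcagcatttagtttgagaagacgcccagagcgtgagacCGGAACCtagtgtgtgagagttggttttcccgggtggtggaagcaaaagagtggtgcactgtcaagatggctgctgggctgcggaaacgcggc
Acbd6: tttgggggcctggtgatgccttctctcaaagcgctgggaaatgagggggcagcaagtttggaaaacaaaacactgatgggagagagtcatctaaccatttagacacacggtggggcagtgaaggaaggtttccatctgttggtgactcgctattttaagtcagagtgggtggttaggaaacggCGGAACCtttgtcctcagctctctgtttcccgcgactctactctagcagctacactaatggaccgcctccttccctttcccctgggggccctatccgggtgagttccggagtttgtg
The word came from a search after the fold changes were known, so its share is a description with no test. All words of 6, 7 and 8 letters, 43163 in all, were counted on both strands of the windows of protein-coding genes, with 4 limits on expression and 2 rankings. CGGAACC was first among the 8192 words of 7 letters under every limit and both rankings. With no limit on expression, 29 of 86 windows of genes that fell at least 4-fold held it (33.7%), against 643 of 11250 windows of all tested genes (5.72%). Windows were then on hand for 79.9% of the tested genes, slightly under the 80% below which such a check is treated as void. With the limits, the coverage was 80.4% to 81.2%, and the shares were 33.9% to 35.4% against 5.94% to 6.56%. The limit used for the values that follow, a mean log2 CPM of at least 2, was chosen after the coverage under all 4 had been seen. There 20 of 59 windows held the word, and its first base lay between 106 bases before and 25 bases after the gene start. Among all 27025 RefSeq windows, 3.22% hold it. The top words of other lengths were mostly stretches of the same letters, CGGAAC among those of 6 letters.

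The word did not mark most genes that hold it. At that limit 567 windows held it, and 168 of these genes fell, 20 of them at least 4-fold, while 92 rose. Leaving out the falls of at least 4-fold that chose the word, 27.1% of the genes with it and 24.5% of those without it fell. Binding motifs listed from general knowledge were read in the same windows on both strands. CCGGAAG, of GABP and other ETS factors, was in 28.8% of the promoters that fell at least 4-fold, 20% of all tested promoters and 9.12% of all RefSeq windows. GGGCGGGG, of Sp1 and Klf factors, was in 10.2%, 36% and 17.8%, and CCAAT, of NF-Y, in 30.5%, 39.7% and 37.9%. The NRF1 motif was in 3.39%, 11.8% and 4.78%. AAGATGGCG, of YY1, and TGACGTCA, of CREB and ATF factors, were in none of the 59 windows and in 3.69% and 3.58% of all tested promoters. Shares for genes that fell 2-fold to 4-fold or rose at least 2-fold are not given, since only 73.3% and 76.7% of them had a window.

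Genes of the mitochondrial ribosome and complex I were lowered in part. Of 48 tested proteins of the large mitoribosomal subunit, 22 fell and 3 rose, with a list median of -0.16 against 0.02 for all tested genes. The falls were uneven. Mrpl3 was at 7.47, 6.47 and 5.62 CPM against 54.7, 53.7 and 53.2 CPM (log2 fold change -3.04, SE 0.09), Mrpl1 at 8.87, 8.07 and 7.38 CPM against 56.3, 58.2 and 52.0 CPM, and Mrpl48 at 2.38, 2.33 and 1.98 CPM against 19.2, 19.1 and 19.8 CPM. Mrpl13 had -2.17 and Mrpl44 -2.10, and 23 members were not called. Only 1 rise was left without replicate 2 of the labelled KO group or replicate 1 of the 4OHT control. In the small subunit 9 of 33 fell and 4 rose, with a median of -0.03, and 7 fell and 7 rose with library totals. The rises numbered 2 without replicate 1 or 2 of the labelled KO group or replicate 1 of the 4OHT control. Mrps31, which lies on chromosome 8, had the steepest fall of this subunit, at 6.24, 8.61 and 6.03 CPM against 52.9, 59.0 and 51.0 CPM.

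Among 36 subunits of complex I, 12 fell and 4 rose, with a median of -0.05. With library totals 8 fell and 9 rose, and with a replicate block 7 rose, so the balance of this list depends on the scaling, while Ndufc2, Ndufs7 (log2 fold change -1.88, SE 0.08) and Ndufa12 (-1.26, SE 0.09) are far from that margin. Of 16 assembly factors 3 fell and 3 rose, led by Ndufaf1 and by Tmem70 (-1.14, SE 0.10), and only 1 rise was left without replicate 1 of the labelled KO group or replicate 2 or 3 of the 4OHT control. In respiratory complexes II to V, 6 of 39 fell and 5 rose, all within -0.32 and 0.28, and with library totals 12 rose and 4 fell. The rises numbered 9 with a replicate block and 2 without replicate 2 of the labelled KO group. Taco1, which activates translation of the mitochondrial cytochrome oxidase message, fell by 3.41; it was chosen after its value was seen.

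RNAs of the mitochondrial genome did not follow one direction. mt-Nd2 rose to 2201, 2243 and 2046 CPM from 1304, 1312 and 1172 CPM (log2 fold change 0.78, SE 0.06, adjusted p = 3.66e-08), mt-Nd1 rose by 0.55 and mt-Cytb by 0.46, whereas mt-Co1 fell by 0.37. The large ribosomal RNA mt-Rnr2 averaged 22855 ± 2473 CPM against 51684 ± 2760 CPM (log2 fold change -1.18, SE 0.09), with no overlap. mt-Rnr1 was not called (adjusted p = 0.630). Both are ribosomal RNAs in libraries made after depletion of ribosomal RNA, and the part of the depletion in these values was not tested.

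Nuclear genes for mitochondrial transcription and translation were mixed. Tefm, an elongation factor of the mitochondrial RNA polymerase, fell to 16.6 ± 0.688 CPM from 35.6 ± 1.53 CPM (SD, n = 3 each). Ssbp1, which binds single-stranded mitochondrial DNA, fell by 1.06 on the log2 scale, while the elongation factor Tufm rose by 0.59 and was as high in the ethanol control. Of 34 tested genes of this list 6 rose and 5 fell, but only 2 rose without replicate 2 of the labelled KO group or without replicate 3 of the 4OHT control, and 3 without replicate 1 of the 4OHT control. The falls numbered 9 with a replicate block and 3 with library totals. Tars2, the mitochondrial threonyl-tRNA synthetase, was at 43.1, 43.8 and 40.5 CPM against 90.3, 90.1 and 86.2 CPM, the largest of 5 called falls among 17 synthetases. Lars2 was not called, at 81.7, 51.5 and 1179 CPM, where replicate 3 of the labelled KO group alone is high. Mitochondrial import genes gave 5 rises and 3 falls of 28, but 9 of each with a replicate block, 9 rises with library totals and 6 falls without replicate 2 of the labelled KO group.

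Among known regulators of nuclear mitochondrial genes, the changes were small. Gabpa, the DNA-binding subunit of GABP, fell by 0.22 (SE 0.05), Pprc1, a coactivator, fell by 0.25 (SE 0.05), and Gabpb2 rose by 0.25 (SE 0.06). Ppargc1b had -0.39 (adjusted p = 0.0397), a call lost in 7 alternative fits. Nrf1 (-0.11), Yy1 (-0.12), Esrra (-0.25), Gabpb1 (-0.12), Tfam (0.03) and Myc (-0.10) were not called, and 6 of the 10 tested regulators fell with a replicate block, against 3 without it.

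Of 49 tRNA modification enzymes 17 fell (12 of 44 outside the 4 stretches) and 5 rose, with a median of -0.04. The rises numbered 9 with library totals and 1 to 3 without replicate 1 or 2 of the labelled KO group or any 1 library of the 4OHT control. Trdmt1, which methylates cytosine in tRNA, fell the furthest of them, at 0.170, 0.292 and 0.364 CPM against 10.7, 10.0 and 11.5 CPM (log2 fold change -5.29, SE 0.21). Gtpbp3, which modifies mitochondrial tRNA and lies within the 4 stretches, was at 5.39, 5.45 and 5.04 CPM against 39.3, 36.5 and 31.6 CPM. Dus1l, a dihydrouridine synthase, averaged 29.2 ± 2.69 CPM against 105 ± 3.84 CPM. In these genes the labelled KO libraries lay wholly below the 4OHT control, as in the falls that made up 19% of all tested genes. Of 43 genes of N-glycosylation and nucleotide sugar supply 11 rose and 9 fell, with 6 rises left without replicate 1 of the labelled KO group and 7 without replicate 3 of the 4OHT control. Beside the steep falls of Alg3 and Slc35a3, Alg13 rose to 451, 454 and 518 CPM from 129, 104 and 120 CPM, but was at 555 ± 25.4 CPM in the ethanol control. Of 41 spliceosome components 10 rose and 6 fell (16 and 11 with a replicate block; 20 rises with library totals, 5 rises without replicate 2 of the labelled KO group, 6 without replicate 3 of the 4OHT control), with Aar2 far below the rest and Snrpd3, an Sm core protein, next at -0.64 (SE 0.07).

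p53 target genes rose together. Of 40 tested 34 rose and 1, Sulf2, fell, with a median of 0.79 against 0.02 for all tested genes and 19.1% of those rising. Mdm2, the ubiquitin ligase that limits p53, was at 307, 319 and 338 CPM against 116, 98.2 and 92.1 CPM (log2 fold change 1.65, SE 0.08, adjusted p = 1.05e-09). An inhibitor of Akt, Phlda3, averaged 58.9 ± 0.752 CPM against 18.8 ± 1.89 CPM (SD, n = 3 each). Pmaip1 (Noxa), which promotes cell death at the mitochondrion, was at 31.0, 31.1 and 31.5 CPM against 10.0, 10.3 and 10.9 CPM. The groups were apart in all of these, and the ethanol control averaged 102 CPM for Mdm2, 22.1 CPM for Phlda3 and 14.2 CPM for Pmaip1. Plk2 rose by 2.02, Bbc3 (Puma) by 1.11 and the cell cycle inhibitor Cdkn1a by 1.04. Trp53 itself had -0.05 (adjusted p = 0.566). Within the 29 tested genes of the apoptosis machinery, which share some of these, 6 rose and 7 fell; Dffb, the DNase that cuts DNA during apoptosis, rose by 1.85 (SE 0.11).

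Targets of Nfe2l2, the factor of the antioxidant response, rose in 16 of 27 and fell in 2, with a median of 0.32. The falls numbered 4 with a replicate block, 0 without replicate 1 of the labelled KO group, without replicate 2 of the 4OHT control or with library totals, and 1 without replicate 3 of the labelled KO group or replicate 1 or 3 of the 4OHT control. Ephx1, also on the p53 list, rose by 1.29, Nqo1 by 0.70 and the ferritin heavy chain Fth1 by 0.65, while Slc7a11 fell by 0.35 and Hmox1 had 0.01. Lysosome and autophagy genes rose in 15 of 36 and fell in 6; outside the 4 stretches 12 of 28 rose and 3 fell. Ctsd, a lysosomal protease, rose by 0.54 and was near the 4OHT control level in the ethanol control, whereas Gabarapl1 (1.19) lies on distal chromosome 6 and was raised in the ethanol control as well. Integrated stress response genes gave 8 rises and 12 falls of 47 (5 rises without replicate 2 of the 4OHT control), with Sesn2 at 0.79 and the tryptophanyl-tRNA synthetase Wars at -0.54. In the ethanol control against the 4OHT control, 14 of the 47 rose and none fell, with a median of 0.16. Between labelled KO and ethanol control 6 rose and 25 fell, with a median of -0.30, where 13% and 14.2% of all tested genes did so. In the unfolded protein response 5 of 24 rose and 5 fell. Of 9 snoRNA host genes 4 rose, among them Gas5 (0.61), and none fell.

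Replication genes fell more often than they rose, while the balance of other growth lists changed with the scaling. Of 49 S phase genes 22 fell and 1 rose, with a median of -0.13, and outside the 4 stretches 19 of 44 fell. Pola1, the catalytic subunit of DNA polymerase alpha, was at 113, 111 and 117 CPM against 154, 150 and 155 CPM (log2 fold change -0.43, SE 0.05). Gins2 (-0.74) and Mcm5 (-0.45), of the replicative helicase, lie on chromosome 8. With library totals 14 of these genes fell and 3 rose, and 2 rose with a replicate block or without replicate 1 of the 4OHT control or of the ethanol control. Mitosis genes gave 9 falls and 6 rises of 30, and 4 falls and 11 rises with library totals. Among 55 ribosome biogenesis genes 18 fell and 7 rose, and with library totals 11 fell and 10 rose; 3 to 4 rises were left without replicate 2 of the labelled KO group or replicate 1 or 3 of the 4OHT control. Cytosolic ribosomal proteins gave 21 rises and 4 falls of 76, 46 and 0 with library totals, and 34 rises with a replicate block. Their rises numbered 10 to 13 without replicate 1 or 2 of the labelled KO group or replicate 2 or 3 of the 4OHT control.

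Cholesterol synthesis genes fell in 14 of 24, and none of the 24 rose, with a median of -0.33; with library totals 12 fell and 2 rose. Sqle, squalene epoxidase, averaged 62.3 ± 2.58 CPM against 79.3 ± 2.45 CPM (log2 fold change -0.35, SE 0.05), and Nsdhl fell by 0.50. Glycolysis genes split by position. Of 23 tested 10 fell (6 without replicate 1 of the labelled KO group) and 3 rose (5 with a replicate block), and the 3 rises, Gapdh, Eno2 and Ldhb, all lie on distal chromosome 6. Outside the 4 stretches 10 of 18 fell and none rose. Pdk1, which restrains pyruvate entry into the mitochondrion, was at 98.5, 115 and 121 CPM against 180, 203 and 207 CPM (log2 fold change -0.82, SE 0.07), and hexokinase Hk2 fell by 0.53.

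Defining ES cell markers were abundant in both groups. Sox2 averaged 477 ± 30.8 CPM against 470 ± 29.2 CPM (adjusted p = 0.797), and Pou5f1 averaged 686 ± 52.3 CPM against 811 ± 22.3 CPM, a fall of 0.24. Nanog, on distal chromosome 6, was at 687, 516 and 597 CPM against 544, 380 and 441 CPM and was not called (adjusted p = 0.0682). Of 31 naive and core pluripotency genes 12 fell and 3 rose (7 with a replicate block), and outside the 4 stretches 10 of 26 fell and 1 rose. Klf5 fell by 0.61 and Nr0b1 by 0.78. Spp1 fell by 1.59 but was also low in the ethanol control, at 79.1 ± 0.662 CPM.

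Formative and primed epiblast genes fell in 10 of 19 and rose in 3, with a median of -0.47. In the ethanol control against the control of the unmodified line, 6 of the 19 fell and 1 rose, with a median of -0.27. Between labelled KO and ethanol control 3 fell and 2 rose, with a median of -0.02. The list median was therefore also lowered in the floxed line without the drug. The de novo DNA methyltransferase Dnmt3b was at 186, 208 and 175 CPM against 310, 366 and 356 CPM (log2 fold change -0.86, SE 0.08), and Lef1 fell by 0.82, whereas Nodal, a TGF-beta family ligand, rose by 0.90. Polycomb and DNA methylation enzymes fell in 12 of 23; the 1 rise, Aebp2, lies on distal chromosome 6.

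Markers of other cell types were mostly scarce. Endoderm markers rose in 10 of 14 tested (6 without replicate 2 of the 4OHT control), and none fell; their summed level was 829 to 849 CPM under the KO label, 593 to 644 CPM in the 4OHT control and 831 to 891 CPM in the ethanol control. Gata6, a factor of primitive endoderm, was at 3.40, 4.43 and 3.07 CPM against 1.23, 1.12 and 1.58 CPM, and Sox17 was under 1 CPM in all 6 libraries. Trophoblast markers rose in 5 of 11 (summed level 118 to 128 CPM against 75.1 to 103 CPM, and 126 to 141 CPM in the ethanol control). However, the rises numbered 0 without replicate 1 of the labelled KO group and 1 without replicate 2 or 3 of the 4OHT control. They numbered 2 without replicate 2 or 3 of the labelled KO group and 3 without replicate 2 of the ethanol control. Mesoderm markers rose in 3 of 12, with summed levels of 31.8 to 42.8 CPM against 31.1 to 48.7 CPM, and neuroectoderm markers gave 1 rise and 3 falls of 7. Mesoderm rises numbered 6 with a replicate block and 1 without replicate 1 of the labelled KO group, and 1 to 2 of these markers fell with that block or without replicate 2 of that group. Neuroectoderm falls numbered 1 with library totals, without replicate 1 of the labelled KO group or without replicate 2 or 3 of the 4OHT control. Fibroblast and feeder markers gave 4 rises and 2 falls of 9, and their summed level was lower in the labelled KO libraries, at 857 to 975 CPM against 1071 to 1203 CPM. Acta2, smooth muscle actin, rose by 3.20 and stood as high in the ethanol control. Of 10 genes of the 2-cell-like state 2 rose, 1 without replicate 3 of the 4OHT control. In bulk RNA, more cells of a type and more RNA per cell cannot be told apart, and the part of other cell types in the results was not tested.

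**Figure D3:**
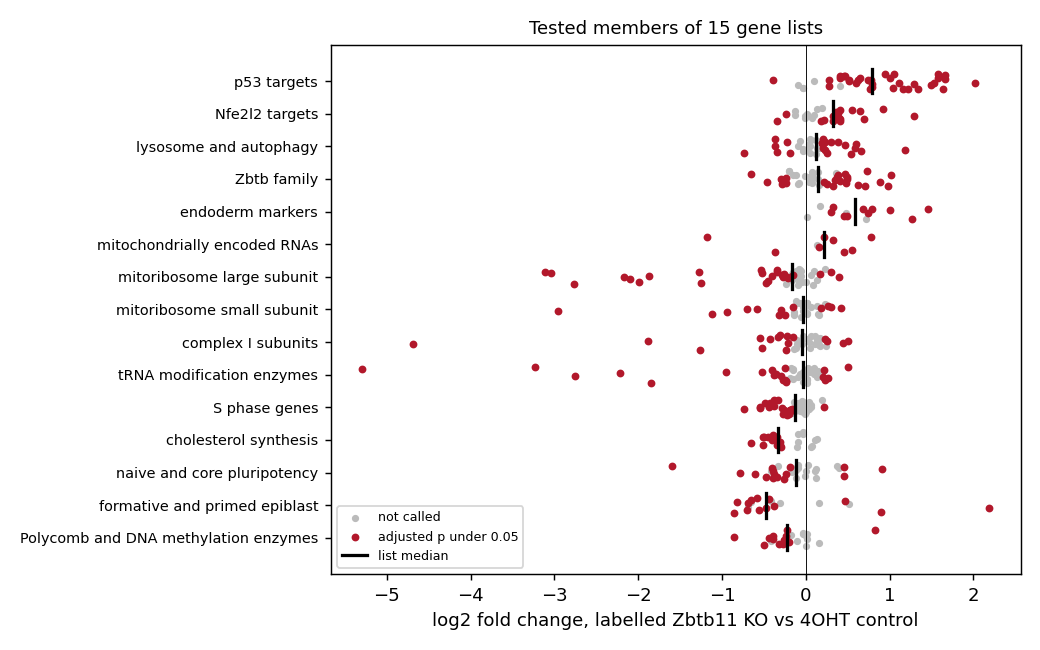
Log2 fold change, labelled Zbtb11 KO against 4OHT control, of each tested member of 15 gene lists (red, adjusted p under 0.05; grey, not called; black bar, list median; vertical scatter within a list is arbitrary). p53 targets lie mostly to the right with a median of 0.79, and a few members of the mitoribosome, complex I and tRNA modification lists lie far to the left of medians near 0.

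The largest rises were a mixed group. Prrg2 was at 18.0, 14.3 and 13.7 CPM against 1.99, 1.64 and 1.15 CPM (log2 fold change 3.26, SE 0.19, adjusted p = 1.44e-09). Anxa8, an annexin, rose by 2.21, Zfp750 by 2.10, Ttll6 by 2.05, Inka2 by 2.04 and Pigc, of the same first step of GPI anchor synthesis as Pigq, by 2.02. The heparan sulfate proteoglycan Sdc4 rose by 1.99 and Dglucy by 2.01. For Dll1 (2.24), Usp26 (2.01) and Alg13 (2.01), the ethanol control was raised against the 4OHT control too. It was also called higher there for Ttll6, Sdc4 and Dglucy, with log2 fold changes of 0.97, 0.70 and 0.64 between the controls. Those genes were called between labelled KO and ethanol control as well, at 1.09, 1.29 and 1.37.

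A rule gathered genes that were called in the same direction in the ethanol control against the 4OHT control. It also asked that they were not called between the labelled KO libraries and the ethanol control. Alg13 failed that second condition, with -0.23 (adjusted p = 0.0357). Under the limits of level and separation, 635 falls and 479 rises met the rule. Without those limits, 3216 falls (19.8%) and 3103 rises (19.1%) were called among all 16224 tested genes. Examples were taken from the 8 largest each way. Usp26, a deubiquitinase gene on the X chromosome, was at 156, 171 and 198 CPM under the KO label, 40.1, 43.5 and 46.3 CPM in the 4OHT control, and averaged 172 ± 10.5 CPM with ethanol. Piwil4, a Piwi protein of germ cells, was at 23.1, 26.5 and 28.3 CPM against 8.20, 8.58 and 8.89 CPM, with 23.4 ± 1.33 CPM in the ethanol control. Capn3, a calpain, was at 8.57, 8.46 and 6.92 CPM against 23.7, 28.2 and 23.0 CPM, with 8.03 ± 1.23 CPM in the ethanol control. Other falls were Ccdc141, Rpl39l, Dusp27, Plce1, Catsperz and Tenm4, from -2.18 to -1.53, and other rises Dll1, Ptpn7, Axl, Apobec1, Calcoco2 and Frmd4b, from 1.39 to 2.24. Rpl39l has a close paralog, so its reads are uncertain. Imprinted genes held further cases: H19 was at 0.849, 0.827 and 0.780 CPM against 12.4, 9.40 and 10.6 CPM, and 0.842 ± 0.117 CPM in the ethanol control, while Cdkn1c and Grb10 fell by 1.18 and 1.05 and were equally low there. For the genes that met the rule, a difference between the groups given 4OHT was set by selection. So was the lack of a call between the floxed line with and without 4OHT.

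A second rule kept the limits of level and separation. It gathered genes whose ethanol and 4OHT controls were close, with an adjusted p of at least 0.5 between them. Its largest falls were Ndufaf1, Wdr36, Pex3, Zdhhc6, Mrpl48 and Zfp13, between -3.81 and -3.06, and its largest rises Zfp750, Inka2, Plk2, Dffb, Ahnak2 and Hmcn2, between 1.67 and 2.10. Pex3, which starts the formation of peroxisomes, was at 1.53, 1.02 and 0.884 CPM, against 14.4 ± 1.61 CPM (4OHT control) and 13.2 ± 1.06 CPM (ethanol control). Zdhhc6, a palmitoyltransferase, averaged 5.96 ± 1.20, 57.3 ± 1.57 and 54.9 ± 1.71 CPM in the labelled KO, 4OHT control and ethanol control libraries. Plk2 averaged 104 ± 3.69, 25.6 ± 5.80 and 28.0 ± 2.76 CPM. The rule itself asked that the labelled KO libraries stood apart from the 4OHT control and that the controls were close. The separation of these 12 genes from the controls of both lines is therefore not a result.

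**Figure D4:**
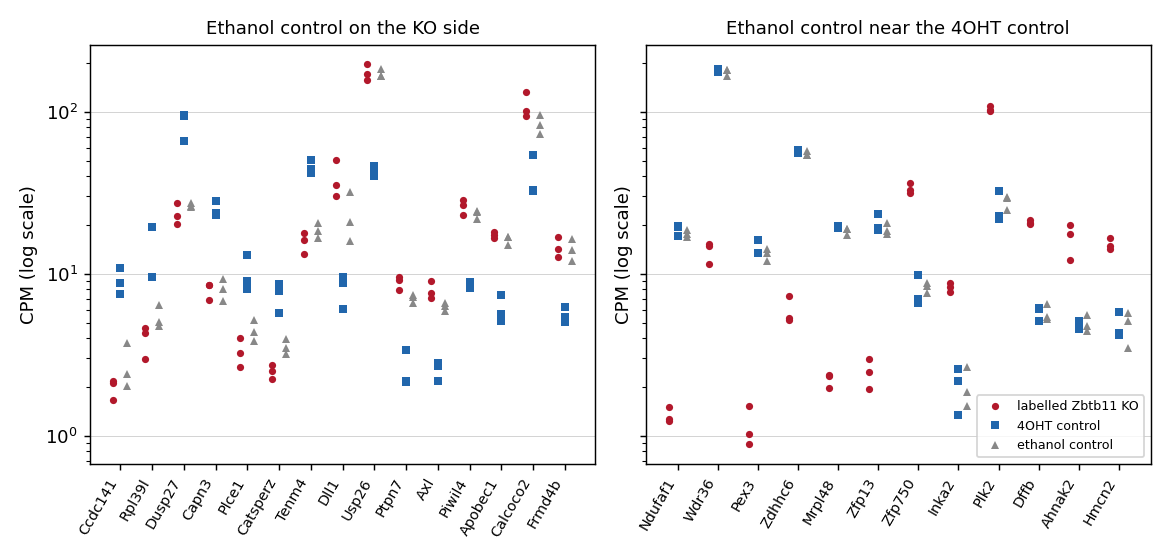
CPM (log scale) in all 9 libraries, 1 point per library. Left, 15 genes whose calls held in every alternative fit. In them the ethanol control differs from the 4OHT control in the same direction and is not called against the labelled KO libraries. It can still lie between the groups, as for Dll1 (means of 38.5 CPM in labelled KO, 22.9 CPM with ethanol and 8.15 CPM in the 4OHT control). Right, 12 genes in which the ethanol control lies near the 4OHT control. Usp26 is near 172 CPM with ethanol and 43.3 CPM in the 4OHT control, whereas Wdr36 is at 177 and 181 CPM in these and at 13.9 CPM in the labelled KO libraries.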

How the data were processed

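RNA sequencing libraries of total RNA were made after removal of ribosomal RNA, per the labels' protocols. The authors deposited whole-number counts of reads for each gene and library, without normalization. The submitters' processing notes name the build mm9 and, with no roles, edgeR, HTSeq, STAR and cutadapt. No source states the strand setting, and reads of overlapping antisense genes may be mixed. The 5 closing entries without a gene were left out of totals and tests.

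Computed here: edgeR 4.0.16 (R 4.3.3), TMM scaling, filterByExpr by group, 1 robust quasi-likelihood fit with the 3 groups of 9 libraries, and Benjamini-Hochberg adjustment over the 16224 genes tested, of 37310 in the files. Calls have an adjusted p under 0.05; "rose" and "fell" refer to calls. Values are CPM; folds are log2. Simulated counts with known folds were used to test the fit. Names, gene order and chromosomes came from GENCODE M21, promoter windows from RefSeq (GRCm38.p6); neither is the files' build, and no position of the files is given. The members and the 45 gene lists were chosen with earlier results of these data known. Genes were named by rule: the edited loci, the 12 largest falls and rises, up to 3 members per list by p, and the 2 rules on the controls. The largest changes and both control rules took only called genes with an official symbol and a mean log2 CPM of at least 2. They also required that the groups compared did not overlap. Other genes were chosen after their values were seen. Lists are given by counts and medians, without a set test. Same-numbered libraries deviated together from their group means (correlation across genes 0.11 to 0.31 for 9 pairs), so the numbers pair the libraries. What the number stands for is not stated. Unless a replicate block is named, the values come from the fit without this pairing. Alternatives were RLE scaling, library totals, DESeq2 1.42.0, 2 other filters, only the groups compared, a replicate block and leaving out each library. A fit without the genes of the 4 stretches was added after seeing the data. Of the genes named by rule, 1 is not reported here.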

Additional observations from a re-analysis of the deposited data

How the results depend on the processing

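The counts of rises and falls between the labelled KO libraries and the 4OHT control stayed within 1.5 times of the reported ones under all 17 alternatives, with 5011 to 8337 genes called, and 157 of 179 named genes kept direction and call throughout. A replicate block moved the ethanol control against the 4OHT control from 2987 to 5323 genes and the comparison of labelled KO with ethanol control from 4417 to 6936. Leaving out 1 library at a time gave 1974 (ethanol replicate 2) to 3069 genes for the former. A few uncalled genes changed sign: with library totals Cep97 had 0.018 and Nxpe3 0.076, and with a filter at 1 CPM Nxpe3 had 0.0024. Leaving out 1 library gave -0.085 to 0.074 for Nxpe3, -0.53 to 0.15 for Hprt, -0.0048 to 0.063 for Tfam and -0.40 to 0.072 for Myc. The causes were not tested. Among genes under a mean log2 CPM of 2, 27% were called, and at 6 or more 47.9%; the part of depth was not tested.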

Other observations

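Zbtb family genes rose in 17 of 41 and fell in 7, with a median of 0.14, and 3 to 4 falls were left with library totals or without replicate 1 of the labelled KO group, replicate 2 or 3 of the 4OHT control or replicate 2 of the ethanol control. Zbtb45 was at 68.5, 76.2 and 57.4 CPM against 36.7, 34.8 and 31.5 CPM, and at 57.5 ± 0.840 CPM (SD, n = 3) with ethanol. Genes of FGF and ERK feedback gave 2 rises and 5 falls of 22 (9.09% and 22.7%), against 19.1% and 19.8% of all tested genes. Their rises numbered 9 with a replicate block, 8 with no filter on low counts, and 4 with library totals or DESeq2. They numbered 0 with only the groups compared, or without replicate 1 of the labelled KO group or replicate 2 of the 4OHT control. Without replicate 2 of the labelled KO group or replicate 3 of the 4OHT control 1 rise was left. The same held without replicate 2 or 3 of the ethanol control, or without the genes of the 4 stretches. The list held the ETS factor Etv5, at 230.2, 247 and 237 CPM against 488, 447 and 456 CPM. Wnt pathway targets gave 3 rises and 4 falls of 20 (15% and 20%), and Notum, a secreted Wnt inhibitor, averaged 8.92 ± 1.02 CPM against 25.7 ± 3.83 CPM. The MHC class I genes H2-K1 and H2-D1 had log2 fold changes of -1.15 and -0.80, and were as low with ethanol, at 14.6 and 10.2 CPM; they belong to a family of near-identical genes, so their reads are uncertain.

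A run of 20 genes from Pdpn to Zfp991 on chromosome 4 had a median log2 fold change of -0.85, and -0.63 in the ethanol control against the 4OHT control. It was picked out after its values were seen.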
